A study of Mus musculus with 7 samples.

Results

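The skeletal and cardiac myosin heavy chain genes Myh1, Myh2, Myh3, Myh4, Myh6, Myh7, Myh7b, Myh8 and Myh13 were described in the open chromatin of muscle stem cells (MuSCs). These 9 members, of 21887 protein-coding genes, were chosen by name and not by a measured value. Every peak over the gene span and 20 kb on both sides was taken, together with the whole fast myosin cluster on chromosome 11 between the outer ends of Myh3 and Myh13, which spans 293 kb. ATAC-seq, in which the Tn5 transposase cuts and tags open DNA, had been done on 4 Nedd4L-cKO and 3 WT libraries of 5000 MuSCs each. The question of the study was whether loss of Nedd4L alters the accessible chromatin of freshly isolated MuSCs.

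The cKO mice carried Nedd4L fl/fl alleles and a Pax7 cre/+ driver on a C57BL/6 background, so that an exon coding for part of the catalytic domain was lost in Pax7-expressing cells. The driver is active from development on, so the descendants of these cells carry the deletion too, and the gene is still transcribed. The exact alleles of the WT mice are not given in the sources used here. Cells of both groups came from the hindlimb muscles of young male mice and were sorted as ITGA7+/Hoechst+/CD31-/CD45-/CD11b-/SCA1-. The study's methods give 3 WT and 4 Nedd4L-cKO mice, as many as there are libraries in each group.

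Myosin heavy chains are the motor proteins of the thick filament, and the isoform a muscle fiber makes sets how fast it contracts. Myh3 (embryonic) and Myh8 (perinatal) serve developing and regenerating muscle, Myh2 (IIa), Myh1 (IIx) and Myh4 (IIb) serve adult fast fibers, and Myh13 serves extraocular and laryngeal muscle. Myh7 is the slow and beta-cardiac isoform, Myh6 the alpha-cardiac isoform, and Myh7b a slow-tonic form. MuSCs are not contractile, and these genes are known as late products of differentiation.

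The libraries held 14.4 to 20.1 M (mega) tags after filtering and 69302 to 79158 peaks. WT replicate 3 alone was read in lane 2. Promoters of all 8 MuSC markers, Pax7 and Myf5 among them, had a peak in every library. Those of the 4 immune markers had none in any library. Other marker lists were mixed. The endothelial genes Pecam1 and Cdh5, the fibro-adipogenic genes Pdgfra and Ly6a and the tendon gene Tnmd had no promoter peak in any library. Endothelial Tek and Kdr, fibro-adipogenic Col1a1, smooth muscle and pericyte Acta2, Myh11 and Cspg4 and tendon Scx had one in all 7, Dcn in 5 and Rgs5 in 1. Of 8 mature myofiber markers, 7 (87.5%) had a promoter peak in every library and Ckm in 5. Across protein-coding genes, 62.5% of promoters had one in every library. Promoters of some fiber genes were thus open in these preparations. Of the 22 thick filament genes and chaperones described below, however, 6 were called in all 7 libraries. The mean pileup percentile of the myofiber list, with a promoter without a peak set at 0, was 58.8 to 64.1 in the Nedd4L-cKO libraries and 61.0 to 66.0 in the WT libraries. Whether nuclei of myofibers or of these other cell types had a part in the calls below was not tested.

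The 250 bases before the start of transcription are shown for the adult fast genes and for Myh8. The longest stretch common to these genes, taken as a set, was sought, and the other members lack it. Sequences are from RefSeq on GRCm38, which is mm10, all on the plus strand of chromosome 11. Capitals mark the shared 14-base stretch TTCTAATTATATCC and, where it occurs in this direction, the TATA motif TATAAA. Myh3 is added as the neighbor without the stretch.
Myh2: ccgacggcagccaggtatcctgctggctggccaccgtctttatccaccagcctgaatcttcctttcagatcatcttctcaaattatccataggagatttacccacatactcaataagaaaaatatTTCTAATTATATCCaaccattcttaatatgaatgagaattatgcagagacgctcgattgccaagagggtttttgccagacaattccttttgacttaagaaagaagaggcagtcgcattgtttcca
Myh1: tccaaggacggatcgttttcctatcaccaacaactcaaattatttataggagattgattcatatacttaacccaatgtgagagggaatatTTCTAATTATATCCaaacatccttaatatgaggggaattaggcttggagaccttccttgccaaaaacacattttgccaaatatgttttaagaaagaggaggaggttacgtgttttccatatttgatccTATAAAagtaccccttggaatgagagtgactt
Myh4: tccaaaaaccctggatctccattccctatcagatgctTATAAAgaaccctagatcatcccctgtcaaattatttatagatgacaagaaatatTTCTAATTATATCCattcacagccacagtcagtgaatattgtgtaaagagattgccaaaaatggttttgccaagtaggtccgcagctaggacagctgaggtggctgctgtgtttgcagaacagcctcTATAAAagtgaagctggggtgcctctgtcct
Myh8: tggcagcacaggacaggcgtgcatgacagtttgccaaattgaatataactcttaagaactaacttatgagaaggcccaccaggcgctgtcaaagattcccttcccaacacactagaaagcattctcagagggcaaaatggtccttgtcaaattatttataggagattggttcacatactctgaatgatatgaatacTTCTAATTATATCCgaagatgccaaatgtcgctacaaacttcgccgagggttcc
Myh3: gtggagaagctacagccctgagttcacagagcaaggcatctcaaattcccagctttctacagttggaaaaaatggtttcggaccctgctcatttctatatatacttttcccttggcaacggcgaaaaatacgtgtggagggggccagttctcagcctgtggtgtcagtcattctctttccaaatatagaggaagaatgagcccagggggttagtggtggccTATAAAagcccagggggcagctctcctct
These windows lie at chr11:67170777-67171026 for Myh2, chr11:67199852-67200101 for Myh1, chr11:67237562-67237811 for Myh4, chr11:67276874-67277123 for Myh8 and chr11:67078050-67078299 for Myh3.

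Searched on both strands, the 14-base stretch was found in 4 of 32851 RefSeq promoter windows of this length (0.0122%), those of Myh2, Myh1, Myh4 and Myh8. It was taken from these 4 genes, so its presence in them was set by the search. How often other 14-base stretches occur elsewhere was not tested, so its absence from other windows does not measure specificity. It starts 125 bases before the start of Myh2, 160 before Myh1, 158 before Myh4 and 54 before Myh8. In Myh2, Myh1 and Myh4 the match extends to 20 bases. TATAAA lies close to the start in Myh1, Myh4 and Myh3, beginning 32, 31 and 29 bases before it. On either strand it occurs in 12.4% of all windows and in 4 members, and the MEF2 motif, known by its A/T-rich core, in 2.92% of all windows and in Myh1, Myh4 and Myh8. An E-box (CANNTG) was found in 7 members and in 66.2% of all windows. The motifs were chosen after the sequences were seen, and a match describes letters, not binding.

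Of the 9 promoters, taken as 1 kb on both sides of the start, those of Myh1 and Myh4 had a peak in all 7 libraries. Across protein-coding genes the same was true of 62.5% of promoters. Promoters of Myh2 and Myh8 were called in some libraries, against 5.28% of all promoters. The 5 others, Myh3, Myh13, Myh7, Myh6 and Myh7b, were called in none, against 32.2% of all promoters. In a bulk library, a site open in few cells and a site weakly open in many cannot be told apart.

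Myh1, the IIx gene, had the clearest promoter. Its peak covered the start and the 14-base stretch in all 7 libraries. Within each library, peaks were ranked by pileup (mean tag coverage) and by fold enrichment over local background, on a scale from 0 (lowest) to 100 (highest). By pileup the Myh1 peak stood at percentile 82.8, 79.9, 83.9 and 86.1 in the Nedd4L-cKO libraries, in replicate order, and at 83.6, 81.97 and 78.9 in the WT libraries. By fold it stood at 74.3, 75.3, 85.3 and 78.8 against 84.9, 77.7 and 74.5. The groups overlapped on both scales. The median over all promoters called in every library was 86.8 by pileup and 79.5 by fold, so Myh1 lay slightly below the typical open promoter.

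The promoter peak of Myh4, the IIb gene, was weaker. Its pileup percentiles were 45.1, 51.0, 52.6 and 54.0 in Nedd4L-cKO and 52.1, 54.5 and 33.6 in WT. Its fold percentiles were 56.2, 64.0, 61.7 and 55.9 in Nedd4L-cKO and 79.2, 70.6 and 55.7 in WT. The genotypes overlapped on both scales, though WT replicates 1 and 2 held the highest fold ranks. In these same 2 libraries the peak ended 206 and 213 bp before the start, whereas in the other 5 it covered the start and the 14-base stretch. The noncoding gene Myhas starts from the same peak region, so signal there cannot be assigned to Myh4 alone.

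Myh2, the IIa gene, had no peak over its annotated start. A region 807 to 1181 bp upstream was called in all 7 libraries and reached the 1 kb window in 6, missing it in WT replicate 3. Its pileup percentiles were 83.6, 78.7, 82.4 and 85.4 in Nedd4L-cKO and 79.5, 76.2 and 87.3 in WT. Its fold percentiles were 75.3, 85.7, 76.9 and 73.2 in Nedd4L-cKO and 66.0, 69.5 and 85.8 in WT. WT replicate 3, which gave no promoter call, thus had the highest rank of the 7 by both measures. No peak covered the shared stretch 125 bases before the Myh2 start.

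The order of levels among the adult fast genes was taken within libraries. It was tested only after these levels had been seen, so the p values below describe the pattern and are no independent test of it. The Myh1 region exceeded that of Myh4 by 33.5 ± 6.13 pileup percentile points (SD, n = 7; higher in 7 of 7 libraries; exact sign-flip permutation test, two-sided, p = 0.0156, the smallest this design allows; BH-adjusted over 6 comparisons 0.03125). By fold the difference was 15.4 ± 7.31 points with the same p values. Myh1 and the Myh2 upstream region differed by 0.585 ± 4.53 points by pileup (exact permutation p = 0.75) and by 2.63 ± 10.9 points by fold (exact permutation p = 0.547), less than the spread between libraries. The Myh2 region exceeded Myh4 by 32.9 ± 10.5 points by pileup in 7 of 7 libraries (exact permutation p = 0.0156, adjusted 0.03125). By fold it did so by 12.7 ± 14.8 points in 5 of 7 (exact permutation p = 0.0625, adjusted 0.0938).

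**Figure D1:**
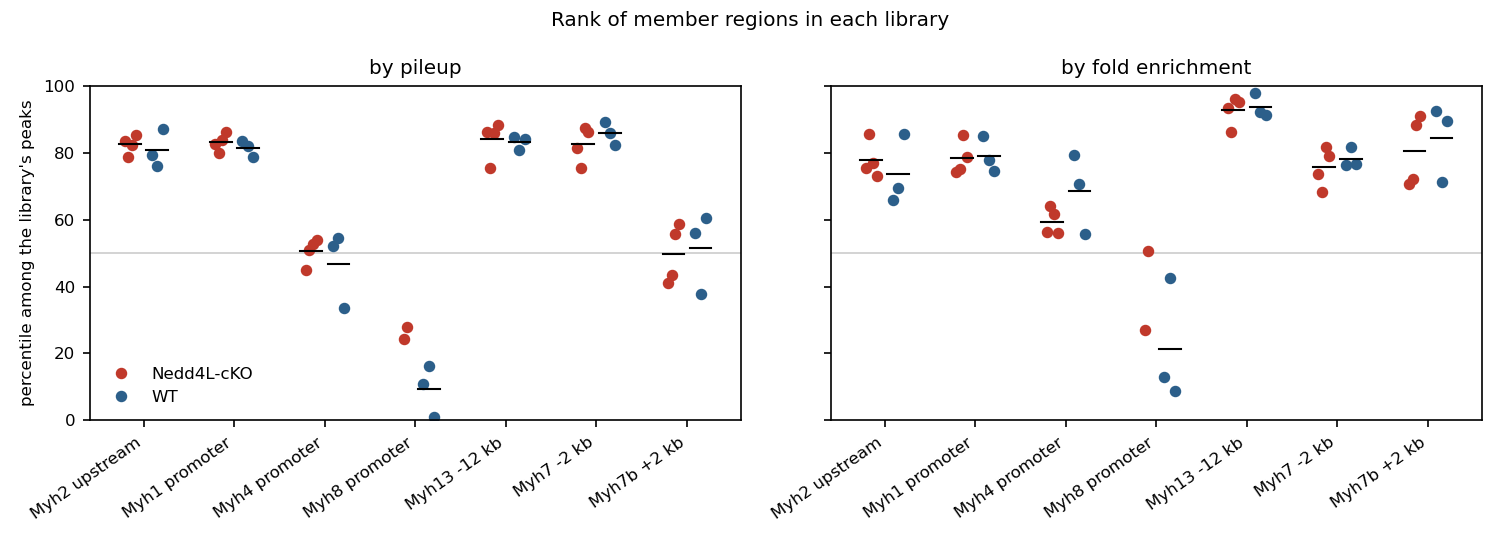
Percentile of 7 regions among the peaks of each library, by pileup (left) and by fold enrichment (right). Each point is the highest peak of the region in 1 library, red for Nedd4L-cKO and blue for WT, black bars are group means where every library of the group had a call, and the gray line marks percentile 50. Myh1 and the Myh2 upstream region lie high and close together by pileup, Myh4 sits near the middle, and Myh8 is lowest with 2 Nedd4L-cKO points missing.

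Myh8, the perinatal gene, had faint promoter peaks in 5 libraries, Nedd4L-cKO replicates 3 and 4 and the 3 WT libraries. The −log10 q of these peaks ran from 1.23 to 2.93, and their pileup percentiles from 1.06 to 24.5. They lay at different places on both sides of the start, and 1 of the 5 covered it. Embryonic Myh3 had no promoter peak, but a region inside the gene, 1438 to 1508 bp past its start, was called in all 7 libraries. Pileup percentiles there were 54.4, 49.3, 66.1 and 65.2 in Nedd4L-cKO and 69.0, 72.0 and 64.2 in WT. The groups overlapped through WT replicate 3. The nearest peak to the Myh13 start lay 2754 to 2912 bp upstream, and to the Myh7 start 2108 to 2218 bp upstream. That of Myh7b lay 1700 to 1974 bp inside the gene, and Myh6 had none within 20233 bp.

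A wider promoter of 2.5 kb therefore held a peak in all 7 libraries for 6 members, Myh3, Myh2, Myh1, Myh4, Myh7 and Myh7b. With 500 bp, Myh1 and Myh4 had a peak in all 7 libraries and Myh8 in 3. With a −log10 q of at least 5, Myh1 had one in all 7, Myh2 in 6 and Myh4 in 4. The share of all promoters was not taken under these 3 settings, so the counts have no background beside them. The genes with the most similar promoter levels were sought among 13395 promoters called in all 7 libraries, by the mean absolute difference in pileup percentile over the libraries. For Myh1 these were Capzb (0.801 points), an actin capping subunit, and Pard6g (0.997 points), a polarity protein. For Myh4 they were Sox15 (1.78 points), a transcription factor, and Cldn3 (2.02 points), a tight junction protein.

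Over the whole fast cluster, overlapping peaks of the 7 libraries merged into 28 regions, 18 of them called in all 7 libraries. With the flanks and the other loci the members had 47 regions, 32 of them (68.1%) called in every library, against 56.0% of 95163 regions in the genome. Of the 28, 4 touched a member promoter, 11 lay in a member gene body and 13 between members. The median fold percentile of the 32 shared regions was 61.8, against 60.9 for all shared regions, and their median pileup percentile was 52.7 against 60.9. By density of shared regions, the windows of Myh13 (8.29 per 100 kb), Myh7b (7.93), Myh3 (7.81) and Myh2 (7.52) stood at percentiles 81.1 to 84.4 of all protein-coding genes, whose median was 3.53. The window of Myh4 had 3.19, near that median.

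The 68.7 kb between Myh3 and Myh2 held 10 regions, 7 of them in every library. This stretch is known to hold enhancer sequence for the adult fast genes, as well as the long noncoding RNA gene 2310065F04Rik (linc-Myh). The highest-ranked region of the Myh3 window by both measures, chr11:67104529-67106381, lay here, just past the end of Myh3. Its pileup percentiles were 70.2, 56.5, 78.7 and 75.7 in Nedd4L-cKO and 66.6, 67.3 and 69.99 in WT. The promoter of 2310065F04Rik was called in 6 libraries, all but Nedd4L-cKO replicate 3. The gaps from Myh2 to Myh1 and from Myh1 to Myh4 held parts of the Myh1 and Myh4 promoter regions. Apart from these 2 regions, which reach into the genes, no region called in every library lay in either gap.

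The highest fold of all the members' regions was found beside Myh13, whose own promoter was not called. Fold and pileup ranks can part widely. The 8 MuSC marker promoters had median fold percentiles from 0.979 (Cdh15) to 56.8 (Calcr), with 7.42 for Pax7. Their median pileup percentiles ran from 71.8 (Calcr) to 99.0 (Sdc4), so fold rank alone does not order sites by openness. The region chr11:67313492-67314898, between Myh8 and Myh13 and 12205 bp upstream of the Myh13 start, had fold percentiles of 93.5, 86.4, 96.0 and 95.2 in Nedd4L-cKO and 97.9, 92.1 and 91.4 in WT. Its pileup percentiles were 86.2, 75.4, 86.1 and 88.4 against 84.7, 81.0 and 84.2. The groups overlapped on both scales. A second region at chr11:67323292-67324349, 2754 bp upstream, had a median fold percentile of 92.3 and a median pileup percentile of 59.2. For chr11:67379630-67380599, past the gene's end, these were 91.9 and 70.4. On the other side, no region was called in every library over 46.3 kb that take in Myh8, although 2 were called in some.

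**Figure D2:**
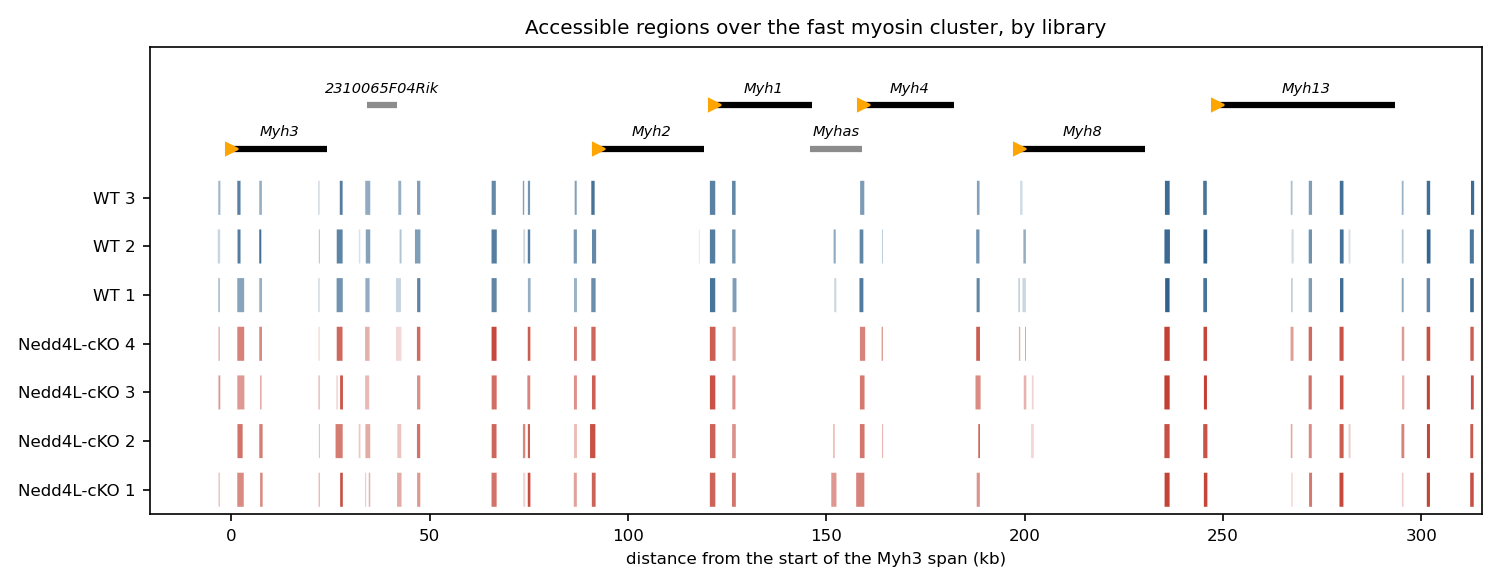
Peaks of each library over the fast myosin cluster, by distance in kb from the start of the Myh3 span. Each block is 1 peak, red for Nedd4L-cKO and blue for WT, darker with a higher fold percentile in its library. Bars on top are gene spans (black for members, gray for noncoding genes) and orange arrows mark member starts. Most blocks line up across the 7 libraries, the darkest ones lie before and after Myh13, and Myh8 shows only pale blocks in some libraries.

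The cardiac pair on chromosome 14 lay in a closed stretch. Between chr14:54940049 and chr14:54996733, 56.7 kb that hold the whole of Myh6 and Myh7, no region was called in every library. A weak region at the far end of Myh6, chr14:54945274-54946374, was called in 6 libraries, and no peak lay over Myh7 in any. Upstream of Myh7, chr14:54996734-54997921 was called in all 7. By pileup it stood at percentile 81.6, 75.4, 87.4 and 86.2 in Nedd4L-cKO and 89.2, 85.9 and 82.4 in WT. It was thus ranked about as high as the Myh1 promoter. It lies within the noncoding gene Gm31251.

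The highest pileups of this window were at the promoters of neighboring genes. The promoter of Ngdn had a median pileup percentile of 98.8 and a median fold percentile of 87.8. That of Efs ranked high by pileup (95.3) but low by fold (17.1), the lowest median fold rank of the members' 32 shared regions. That of Cmtm5 was in the middle range by both (54.1 and 47.1). Of 6 cardiomyocyte marker promoters, those of Nppa, Myl7 and Tnni3 (50%) had no peak in any library, against 32.2% of all promoters. Ryr2 had one in all 7, Tnnt2 in 6 and Nppb in 1.

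Myh7b on chromosome 2 had 2 regions inside the gene in every library although its promoter was not called. The stronger, chr2:155612943-155614149, had fold percentiles of 70.7, 72.1, 88.4 and 90.9 in Nedd4L-cKO and 92.6, 71.3 and 89.6 in WT. Each group held both high and low libraries. By pileup it ranked near the middle, at percentiles from 37.8 to 60.5. The highest pileup of the window was at the promoter of Gss, glutathione synthetase, with a median percentile of 93.7. No library had a peak over the hairpins of the microRNAs that lie within myosin genes, Mir499 in Myh7b, Mir208a in Myh6 and Mir208b in Myh7. The nearest peaks were at least 1703, 2686 and 20958 bp away.

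**Figure D3:**
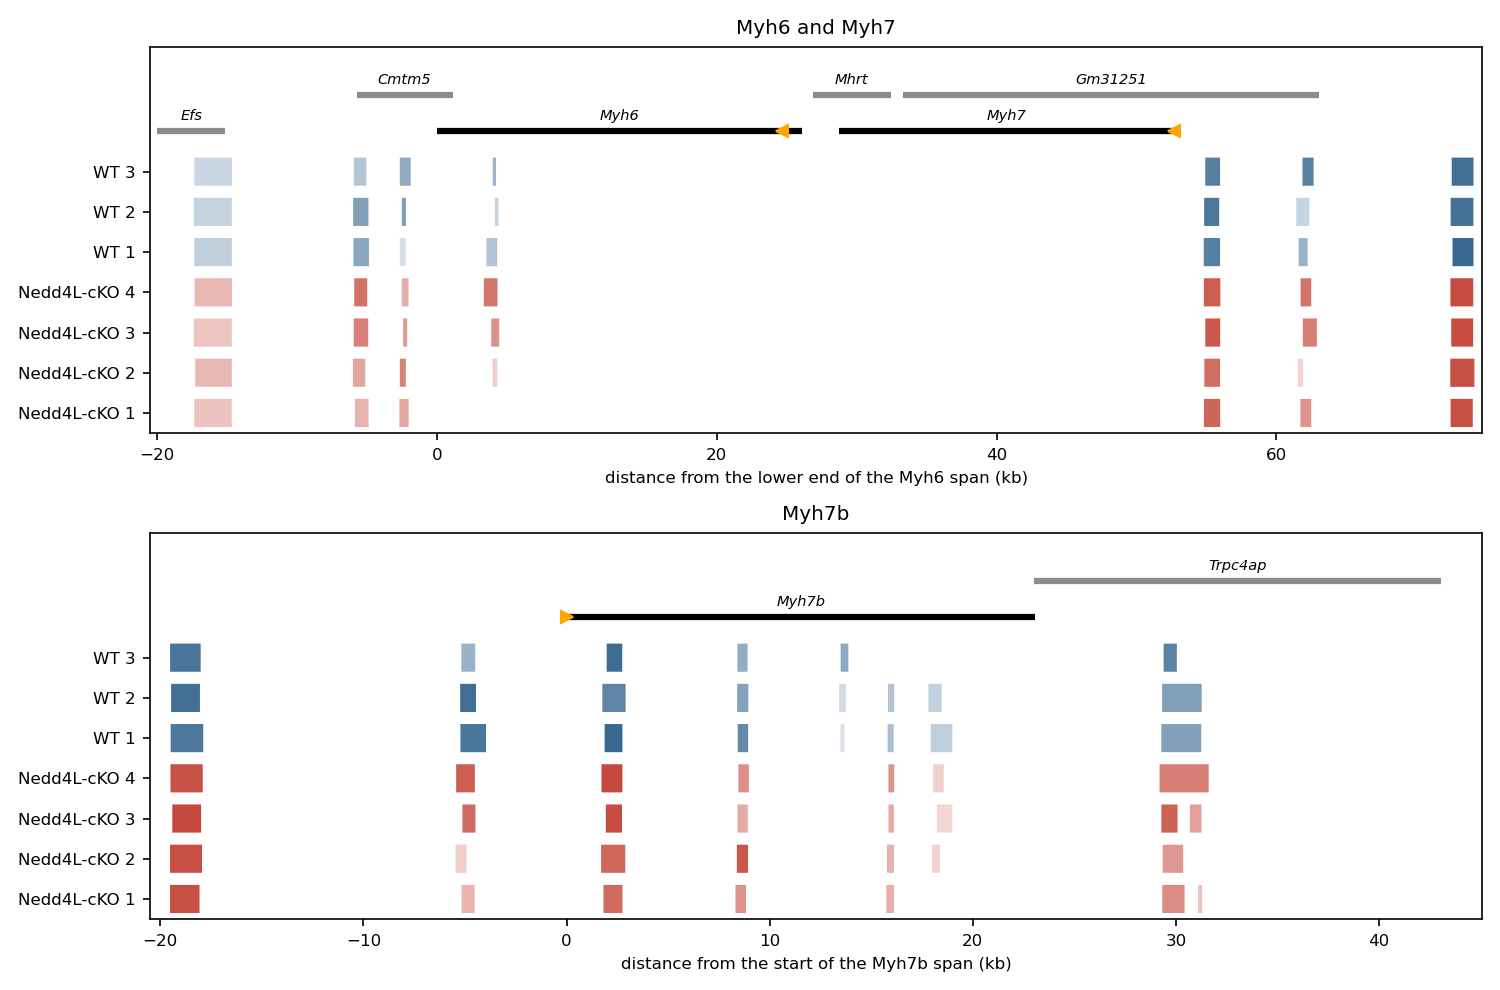
Peaks of each library around Myh6 and Myh7 (top) and around Myh7b (bottom), by distance in kb from the lower end of the Myh6 span and from the Myh7b start. Blocks are peaks, red for Nedd4L-cKO and blue for WT, darker with a higher fold percentile. Bars are gene spans (black for members, gray for others, drawn within the window), and orange arrows mark member starts. Myh7 holds no block, and a block upstream of it is present in all 7 libraries. In Myh7b, 1 pale to mid-toned block occurs in the 3 WT libraries alone.

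Numbers of peaks overlapped between the genotypes. The windows held 38, 41, 38 and 39 peaks in the Nedd4L-cKO libraries and 40, 44 and 37 in the WT libraries, or 39.0 ± 1.41 (SD, n = 4) and 40.3 ± 3.51 (SD, n = 3). The difference of -1.33 peaks was within the spread (exact permutation test, two-sided, p = 0.6, 0.943 adjusted over 4 measures, where 0.0286 is the smallest p of this design). Covered length was 33.8 ± 2.25 kb in Nedd4L-cKO and 33.6 ± 3.80 kb in WT (exact permutation p = 0.943, n = 4 and 3).

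In the fast cluster there were 23, 26, 21 and 23 peaks against 23, 27 and 22 (difference -0.75, exact permutation p = 0.714). They covered 20.7 ± 1.65 kb in Nedd4L-cKO and 19.9 ± 2.15 kb in WT (exact permutation p = 0.543, n = 4 and 3). Without the single lane 2 library, WT replicate 3, the 4 differences were -3, -2.03 kb, -1.75 and -0.418 kb, in the same order (exact permutation p from 0.2 to 0.8, over 15 splits). Both differences in covered length then changed sign.

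The ranks of the 32 shared regions were compared with limma on normal scores of the fold rank, in units of 1 SD of the ranks, fitted over 53245 regions. None passed an adjusted p of 0.05 (0 of all regions did, 0%), and 1 of 32 had an unadjusted p under 0.05, against 3.98% of all regions. Of the 32, 12 were higher and 20 lower in Nedd4L-cKO, with a median difference of -0.09 against 0.01 over all regions. The median size of the difference by fold was 0.17 against 0.16. Ranked by pileup instead, 16 were higher and 16 lower, with a median size of 0.0852 against 0.0877.

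The Myh1 promoter differed by -0.03 (SE 0.193, 95% interval -0.46 to 0.40, limma adjusted p = 1.00). The Myh2 upstream region differed by 0.12 (SE 0.233, interval -0.41 to 0.64) and the Myh4 promoter by -0.30 (SE 0.219, interval -0.80 to 0.19), both with a limma adjusted p of 1.00. By pileup the Myh4 difference was 0.13 and that of Myh1 0.07, so neither kept its sign. The region upstream of Myh13 differed by -0.10 (SE 0.246, interval -0.66 to 0.45) and that upstream of Myh7 by -0.09 (SE 0.182, interval -0.50 to 0.32).

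The 1 region with an unadjusted p under 0.05 was chr11:67111934-67113269, over the far end of 2310065F04Rik. Its fold percentiles were 28.4, 32.3, 23.0 and 29.4 in the Nedd4L-cKO libraries and 42.6, 50.2 and 43.7 in the WT libraries. The groups did not overlap, and this weak region was the single one of the 32 with all Nedd4L-cKO libraries below all WT libraries, against 2.09% of all regions. None of the 32 had all Nedd4L-cKO libraries above, against 2.67% of all regions. The difference was -0.51 (SE 0.168, limma adjusted p = 1.00, 0.0133 before adjustment). By pileup the percentiles were 20.7, 24.0, 24.5 and 27.6 against 29.9, 35.2 and 39.7, a difference of -0.42 (limma adjusted p = 1.00).

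Next in the same direction came the region inside Myh3 described above (-0.43, SE 0.255). The lowest limma p in the other direction was at chr11:67152884-67153695, upstream of Myh2 (0.51, SE 0.326), followed by the Efs promoter (0.18, SE 0.167). All 3 had a limma adjusted p of 1.00. At the region upstream of Myh2, fold percentiles of 88.3, 79.2, 54.3 and 78.1 in Nedd4L-cKO overlapped those of 41.6, 77.5 and 59.5 in WT. The difference of largest size, chosen after its value was seen, was -0.79 (SE 0.549, limma adjusted p = 1.00) at chr2:155605777-155607278 before Myh7b, where fold percentiles ran from 11.7 to 77.9 in Nedd4L-cKO and from 38.2 to 88.8 in WT.

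**Figure D4:**
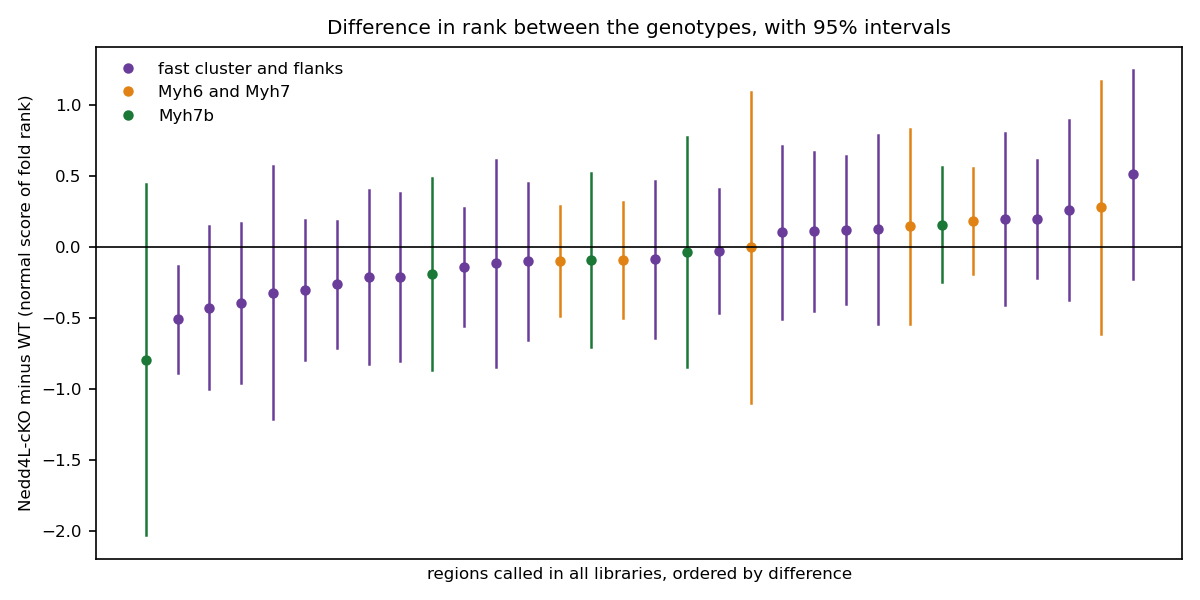
Difference in normal score of the fold rank, Nedd4L-cKO minus WT, for the 32 regions called in all libraries, ordered by size, with 95% limma intervals. Purple marks the fast cluster and flanks, orange the Myh6 and Myh7 window and green the Myh7b window. All intervals but 1, that of the 2310065F04Rik region at -0.51, cross 0.

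Presence of a peak separated the genotypes at 1 region. chr2:155624661-155625114, within Myh7b and 1703 bp past the Mir499 hairpin, was called in all 3 WT libraries and in none of 4 Nedd4L-cKO libraries, as were 0.0820% of all regions. Its −log10 q was 1.24, 1.98 and 4.11 in the WT libraries, and its fold percentile 3.03, 8.26 and 45.6. These were weak peaks in 2 of the 3. No region of the members was called in all Nedd4L-cKO and no WT libraries, against 0.0694% of all regions. With a −log10 q of at least 5, with equal numbers of peaks per library, or with broad peaks that hold a narrow one, the count of such WT regions was 0.

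Other thick filament genes and myosin chaperones resembled the members in having few steady promoter calls. Of 22 genes, 6 (27.3%) had a promoter peak in all 7 libraries, 8 (36.4%) in none and 8 (36.4%) in some. Over all protein-coding promoters these shares were 62.5%, 32.2% and 5.28%, so the share called in none was near that of all. Among those called in all were Myl4, an atrial and embryonic light chain (median pileup percentile 97.2), and Mybpc1, slow myosin-binding protein C (70.6). Mylk2 was called in all too, with a median percentile of 92.0 by pileup but 4.01 by fold. Among those called in none were Myl1 and Myl3, light chains of fast and slow fibers. Of the 5 other class II heavy chains, the nonmuscle genes Myh9, Myh10 and Myh14 and smooth muscle Myh11 had a promoter peak in every library (80%), and Myh15 in none (20%). The median pileup percentile was 98.3 for Myh9, 94.3 for Myh10 and 93.6 for Myh14, above that of each striated member. That of Myh11 was 53.8, below Myh1 (82.8) and near Myh4 (52.1).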

How the data were processed

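ATAC-seq peaks of 4 Nedd4L-cKO and 3 WT libraries were used, grouped by the genotype in their labels. The authors trimmed reads (Trimmomatic 0.39), aligned them to mm10 (BWA-MEM 0.7.17), removed duplicates (Picard 2.26.3) and called broad peaks in each library without a control (MACS2 2.2.7.1, with 200 bp fragments centered on the Tn5 cut). Replicates were not pooled. Per the file headers, pileup is a signal not scaled to depth, fold enrichment a ratio to local background, and p- and q-values are given as −log10. The score deposited by the authors served only to mark narrow peaks.

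Peaks on autosomes, X and Y were ranked within each library, and 2 others per library were left out. Overlapping peaks (1 bp) were merged. Spans and starts came from RefSeq on GRCm38, and 3948 of 21440 genes without a promoter entry took the span end. limma 3.58.1 in R 4.3.3 compared normal scores of the ranks, with Benjamini-Hochberg adjustment, and was tested on simulated data. Values per library were compared by exact permutation over 35 splits. Tags are counted once per position, and depth limits weak peaks. Named regions were those over a member promoter, the highest in each window by fold and by pileup, the 2 with the lowest p in each direction, and those that separated the genotypes; other regions with coordinates were added after their values were seen. Members and lists were chosen with earlier results of these data known, and the order of promoter levels was tested after seeing the data. Python 3.11.15, pandas 2.3.3 and matplotlib 3.10.9 were used.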

Additional observations from a re-analysis of the deposited data

How the results depend on the processing

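With 7 libraries and peak lists in place of coverage, sites below the calling threshold have no value, and the groups could differ by less than the intervals given. Under each alternative run, limma called 0 regions, with 1445 to 3049 at an unadjusted p under 0.05. Small differences per library changed sign. For covered kb in the windows the difference was -0.279 with a −log10 q of at least 5, -0.00447 per Mb covered, -0.103 with flanks of 50 kb and -0.859 with the replicate block. For peaks in the windows it was 0.333 with equal numbers of peaks. For peaks in the cluster it was 0.5 with equal numbers and 0.667 with broad peaks that hold a narrow one. No exact p of these was under 0.05. Leaving out each library in turn gave -3 to 0.5 peaks and -2.03 to 1.49 kb in the windows, and -1.75 to 0.75 peaks and -0.418 to 1.57 kb in the cluster. A sign changed when WT replicate 2, WT replicate 3 or Nedd4L-cKO replicate 4 was left out. Without Nedd4L-cKO replicate 3 the difference in cluster peaks was 0.

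Members with a promoter peak in all libraries numbered 1 with a −log10 q of at least 5 and 6 with 2.5 kb, and 2 to 3 without 1 library, where leaving out WT replicate 3 added Myh2. The share of all promoters was not taken under these settings. The WT region of Myh7b was lost (0) with the stricter q, equal numbers and narrow peaks.

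Libraries with the same replicate number in their titles did not deviate together (r of -0.12, 0.03 and -0.12). For unlike numbers r ran from -0.15 to 0.15. Deviations were taken from the means of small groups, so these values cannot exclude a pairing. With the replicate block the differences were -1.33 peaks and -0.859 kb in the windows (exact p = 0.5 and 0.75) and -0.667 peaks and 0.538 kb in the cluster (both exact p = 0.5). limma with the block called 0 regions, and the 2310065F04Rik region differed by -0.48.

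Single regions reversed as follows. Ranked by pileup, Myh1 gave 0.0718, Myh4 0.128, the region upstream of Myh13 0.0480 and Cmtm5 -0.0420. Cmtm5 gave -0.0129 with depth as covariate and -0.00818 with the block. Without 1 library, Myh1 ran from -0.131 to 0.0915, Myh2 from -0.0200 to 0.342, the region upstream of Myh13 from -0.232 to 0.124, Cmtm5 from -0.118 to 0.322, Ngdn from -0.164 to 0.0188 and the Myh7b region from -0.482 to 0.00460. Myh1 minus Myh2 ran from -0.287 to 2.08 points by pileup and from -0.0795 to 4.95 by fold. The cause was not tested.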
